A study of Mus musculus with 3 samples.

Results

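The 10 genes described here encode the subunits of the transcription factor NF-kappaB (Nfkb1, Nfkb2, Rel, Rela and Relb) and proteins that hold it back (Nfkbia, Nfkbib, Nfkbid, Nfkbie and Tnfaip3). They were chosen by name, with earlier results of these data known, and all 10 were found among the 32285 genes of the transcript matrix. Spleen B cells of 6 mice were compared, 3 labelled LDHA-sufficient (wild type, WT) and 3 labelled LDHA-deficient (knockout, KO). LDHA is a subunit of lactate dehydrogenase, the enzyme that interconverts pyruvate and lactate. Each mouse was marked with its own antibody hashtag, and viable B cells sorted with regard to GL7, a surface marker of germinal centre (GC) B cells, were pooled on a single lane for 5′ single-cell RNA sequencing. The sources used here do not give the deleted part of Ldha, the driver of any Cre, the strain, the age or any immunisation. For 2 of the 3 libraries the labels name blood stem and progenitor cells, against the sorting protocol. The B cell genes Cd79a, Cd79b, Ms4a1, Pax5 and Cd22 summed to between 4814 and 7661 CPM (UMIs, the counted molecules, scaled to the adjusted total of a mouse's class) in the non-GC, follicular, activated and GC cells of every mouse, and the cells were taken as B cells.

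NF-kappaB works as a pair of subunits. In resting B cells the pair is kept in the cytoplasm by inhibitors such as IκBα (Nfkbia), IκBβ (Nfkbib) and IκBε (Nfkbie), and signals from the antigen receptor, CD40 or Toll-like receptors lead to their destruction and release RelA and c-Rel. A slower arm, driven by the BAFF receptor and CD40, processes the Nfkb2 precursor and activates RelB. Several of the inhibitors, and the ubiquitin-editing enzyme A20 (Tnfaip3), are themselves transcribed by NF-kappaB, so their transcripts are commonly read as a sign of its activity. IκBNS (Nfkbid) is an inhibitor-like protein of the nucleus that is made after stimulation and is needed for normal marginal zone B cells.

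The DNA before the start sites of these genes was searched for the κB motif, the sequence that NF-kappaB binds. RefSeq windows of the mouse build GRCm38.p6 were at hand for 8 of the 10 genes, and the κB consensus was found on either strand in 5 of them, namely Nfkbia, Rel, Tnfaip3, Nfkbid and Nfkb2. Counted by window, 7 of 13 windows of these genes hold a match, against 5.8% of all 32851 promoter windows of the same length. The Nfkb2 match at chr19:46305705-46305714 lies in overlapping windows, so windows with a match are not all separate sites. Counted by gene, 6.55% of 27025 genes hold one. The windows of Nfkbib, Nfkbie and Rela held no match. A match describes letters in the window and no binding was measured. A further Nfkb2 match, at chr19:46304726-46304735, lies outside the stretches printed here. The sequences below run 5′ to 3′ on the strand of the gene, and capitals mark the κB match (overlapping matches in Rel and on both strands in the first Nfkb2 stretch are merged).
Nfkbia, chr12:55492648-55492897, minus strand, upstream of every annotated transcript: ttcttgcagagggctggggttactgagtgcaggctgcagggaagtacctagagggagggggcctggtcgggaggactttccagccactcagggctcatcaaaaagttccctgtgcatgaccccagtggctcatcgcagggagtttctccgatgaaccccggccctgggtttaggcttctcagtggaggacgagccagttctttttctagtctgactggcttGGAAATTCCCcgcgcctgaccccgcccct
Rel, chr11:23771011-23771101, minus strand, upstream of every annotated transcript: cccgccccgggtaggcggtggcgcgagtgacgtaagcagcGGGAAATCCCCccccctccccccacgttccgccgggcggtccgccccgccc
Tnfaip3, chr10:19015411-19015462, minus strand, in an intron of a longer annotated transcript: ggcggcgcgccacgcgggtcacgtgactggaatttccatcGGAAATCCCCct
Nfkbid, chr7:30422156-30422229, plus strand, in an intron of a longer annotated transcript: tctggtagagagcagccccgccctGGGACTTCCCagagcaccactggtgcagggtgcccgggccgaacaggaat
Nfkb2, chr19:46304688-46304717, plus strand, in the 5′ UTR of a transcript: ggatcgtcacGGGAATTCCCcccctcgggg
Nfkb2, chr19:46305695-46305724, plus strand, in the 5′ UTR of a transcript: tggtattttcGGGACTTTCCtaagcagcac

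After hashtag calling and filters on cells, 1775 B-lineage cells remained, with between 1103391 and 2132288 UMIs per mouse. Ldha itself did not overlap between the genotypes in any class tested and was lower in LDHA-deficient mice, with a log2 difference of -1.95 over all B cells (edgeR adjusted p = 1.81e-04). Clusters were named from marker genes as follicular, interferon-responding, marginal zone, activated, GC and plasma cell-like. The 10 genes were left out of the clustering. GC B-like cells were 19.6%, 23.3% and 5.76% of B-lineage cells in LDHA-sufficient mice 1, 2 and 3 and 2.99%, 1.94% and 2.55% in LDHA-deficient mice 1, 2 and 3, so LDHA-sufficient mouse 3 stood apart from its group. The sort can set these shares. Among activated B-like cells, red cell genes summed to 4430, 0 and 18700 CPM in LDHA-sufficient and 21.9, 5.30 and 505.6 CPM in LDHA-deficient mice. Cells with 20 or more such UMIs numbered 1, 0 and 2 against 0, 0 and 1. Early genes of the antigen receptor summed there to between 1133 and 1345 CPM in 5 mice and to 3298 CPM in LDHA-deficient mouse 2.

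Across B cell states, most of the 10 genes were lowest in GC B-like cells, and Nfkbid stood highest in activated B-like cells. All levels in this and the following 3 paragraphs are CPM on a scale fitted jointly to every mouse and state, so they differ slightly from those fitted class by class. They are given without a test, because the states were built from the same transcripts. In the mean of the 6 mice, 8 of the 10 genes were highest in activated B-like cells, and 9 of 10 were lowest in GC B-like cells. Both counts depend on the cells and mice taken, and the same shares over all genes were not computed. With NF-kappaB and antigen receptor genes left out of the clustering, 3 genes, Nfkb1, Nfkbid and Nfkbie, were highest in activated and 8 lowest in GC B-like cells. In LDHA-sufficient mice alone the counts were 6 and 7, with Nfkbid lowest in follicular and Tnfaip3 and Nfkbib lowest in marginal zone B-like cells. Every mouse's activated cells lay above every mouse's follicular cells for 0 of the 10 genes, against 5.27% of 10562 genes. Every mouse's GC cells lay below every mouse's follicular cells for 5 of the 10, Nfkb1, Nfkb2, Rel, Relb and Nfkbia, against 8.89% of the same genes. For each of the 10 genes, neighbouring states in the order of the means overlapped between mice.

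Nfkbid differed most between states. In activated B-like cells its level was 28.5 CPM in the lowest mouse, 172.5 at the median and 255 in the highest. In follicular B-like cells it was 13.5, 28.4 and 35.5 CPM in the same order. The means were 145 ± 91.2 CPM in activated, 42.2 ± 12.3 in marginal zone, 26.1 ± 8.85 in follicular, 23.2 ± 16.9 in interferon-responding and 12.4 ± 11.7 CPM in GC B-like cells (SD, n = 6). Activated cells were above follicular cells in 6 of 6 mice, and the ratio of the means was 5.56. LDHA-sufficient mice 1 and 2 had the low activated values, 28.5 and 41.5 CPM, while the other 4 mice were at 154.5 or more. Nfkbid was among the 10 genes with the largest fold in the activated cluster even though it did not enter the clustering. When the other NF-kappaB and antigen receptor genes were also left out of the clustering, the activated mean was 90.1 ± 57.7 CPM and the follicular mean 39.3 ± 18.5.

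The feedback gene Tnfaip3 likewise had its highest mean in activated cells, with 60.4 ± 38.4 CPM, and next in interferon-responding cells, with 30.2 ± 14.8 CPM. Its follicular, marginal zone and GC levels were 25.01 ± 5.82, 23.1 ± 13.2 and 13.3 ± 8.43 CPM. Activated cells were above follicular cells in 4 of 6 mice. With NF-kappaB and receptor genes left out of the clustering, Tnfaip3 was at 36.6 ± 24.4 CPM in activated and 36.9 ± 14.4 in interferon-responding cells. With coarser clusters it was at 62.2 ± 34.4 CPM in activated and 27.5 ± 4.46 in follicular cells. Nfkbie, which encodes an inhibitor with a preference for c-Rel and RelA, was at 115 ± 29.6 CPM in activated, 96.2 ± 45.9 in interferon-responding, 81.3 ± 26.9 in marginal zone, 80.4 ± 12.9 in follicular and 53.6 ± 22.9 in GC B-like cells. Nfkbia reached 211 ± 117.1 CPM in activated and 177.5 ± 25.8 in follicular cells, then 157 ± 39.1 in interferon-responding, 142 ± 50.2 in marginal zone and 88.2 ± 38.6 CPM in GC B-like cells. The activated value of Nfkbia ran from 85.5 CPM in LDHA-sufficient mouse 1 to 420.5 in LDHA-deficient mouse 2. With NF-kappaB and receptor genes left out of the clustering, the order turned, at 156.5 ± 63.5 CPM in activated and 197 ± 30.0 in follicular cells. Nfkbib was nearly flat, between 32.2 ± 15.3 CPM in interferon-responding and 47.5 ± 15.8 in activated cells, with 40.4 ± 7.04 in follicular, 35.7 ± 15.1 in GC and 34.3 ± 17.3 CPM in marginal zone B-like cells.

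Among the subunits, Rel, whose product c-Rel drives the growth of stimulated B cells, was at 324 ± 49.5 CPM in activated, 316 ± 45.6 in interferon-responding, 305.6 ± 19.0 in follicular, 281 ± 38.9 in marginal zone and 179 ± 55.1 in GC B-like cells. With NF-kappaB and receptor genes left out of the clustering, Rel was at 252 ± 56.4 CPM in activated and 327 ± 30.8 in follicular cells. Nfkb1, the source of p50, was at 252 ± 39.1 CPM in activated, 231 ± 27.8 in follicular, 205.5 ± 56.5 in marginal zone, 193 ± 46.2 in interferon-responding and 126 ± 37.3 in GC B-like cells. For both, the GC level was below the follicular level in 6 of 6 mice. Nfkb2, the source of p52, was highest in follicular cells at 114 ± 15.6 CPM, with 99.2 ± 35.4 in interferon-responding, 93.5 ± 20.3 in activated, 80.3 ± 29.3 in marginal zone and 48.9 ± 19.7 CPM in GC B-like cells. Its partner Relb was at 60.9 ± 18.8 CPM in activated, 52.7 ± 11.6 in interferon-responding, 44.9 ± 10.4 in follicular, 37.0 ± 14.6 in marginal zone and 14.5 ± 9.77 in GC B-like cells. Rela was at 49.1 ± 2.99 CPM in follicular, 44.3 ± 18.3 in marginal zone, 41.8 ± 10.1 in activated, 39.2 ± 25.04 in interferon-responding and 29.5 ± 12.1 CPM in GC B-like cells.

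The lower GC levels are lower shares of a larger pool of transcripts. GC B-like cells held 12920 ± 2198 UMIs per cell, against 3791 ± 139 in follicular cells (mean over 6 mice ± SD). Counted per cell, each of the 10 genes had a higher mean in GC than in follicular B-like cells. Rel gave 2.41 ± 0.533 against 1.10 ± 0.0880 UMIs, Nfkb1 1.73 ± 0.494 against 0.832 ± 0.112, and Relb 0.193 ± 0.140 against 0.161 ± 0.0360. The total per cell was higher in GC cells as well, and the share of all genes higher per cell was not computed. The count is therefore not read as a result about the 10 genes. GC levels in the LDHA-deficient mice rest on 8, 7 and 6 cells, where a single UMI is worth 9.25 to 10.8 CPM. GC B-like cells with 5 or more UMIs of T and NK cell genes numbered 1, 1 and 1 in LDHA-sufficient and 2, 1 and 0 in LDHA-deficient mice. On the scale of the class's own fit, these genes summed to 17.4, 431 and 108 against 317, 72.8 and 12.8 CPM. The part of such cells in the GC levels across states was not tested. In the 3 LDHA-sufficient mice (16 GC B-like cells in mouse 3), the GC cluster not led by mitotic genes had 135, 141 and 291 CPM of Nfkbia on 93 UMIs. All lay above the 119, 84.1 and 52.9 CPM of the mitotic cluster, on 141 UMIs. Nfkb2 also separated the clusters, with means of 62.4 against 40.1 CPM. Nfkb1 went the other way in 3 of 3 mice (means of 102.5 against 140.1 CPM), and the mean of Nfkbib did too (38.0 against 44.1 CPM). The others of the 10 overlapped, with higher means outside the mitotic cluster. Plasma cell-like cells of the same mice (8, 3 and 4 cells) gave 3 UMIs of Rel in all (15.6 ± 14.1 CPM), 8 of Nfkb1 (25.8 ± 44.6 CPM) and 38 of Nfkbia (266 ± 139 CPM, n = 3).

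**Figure D1:**
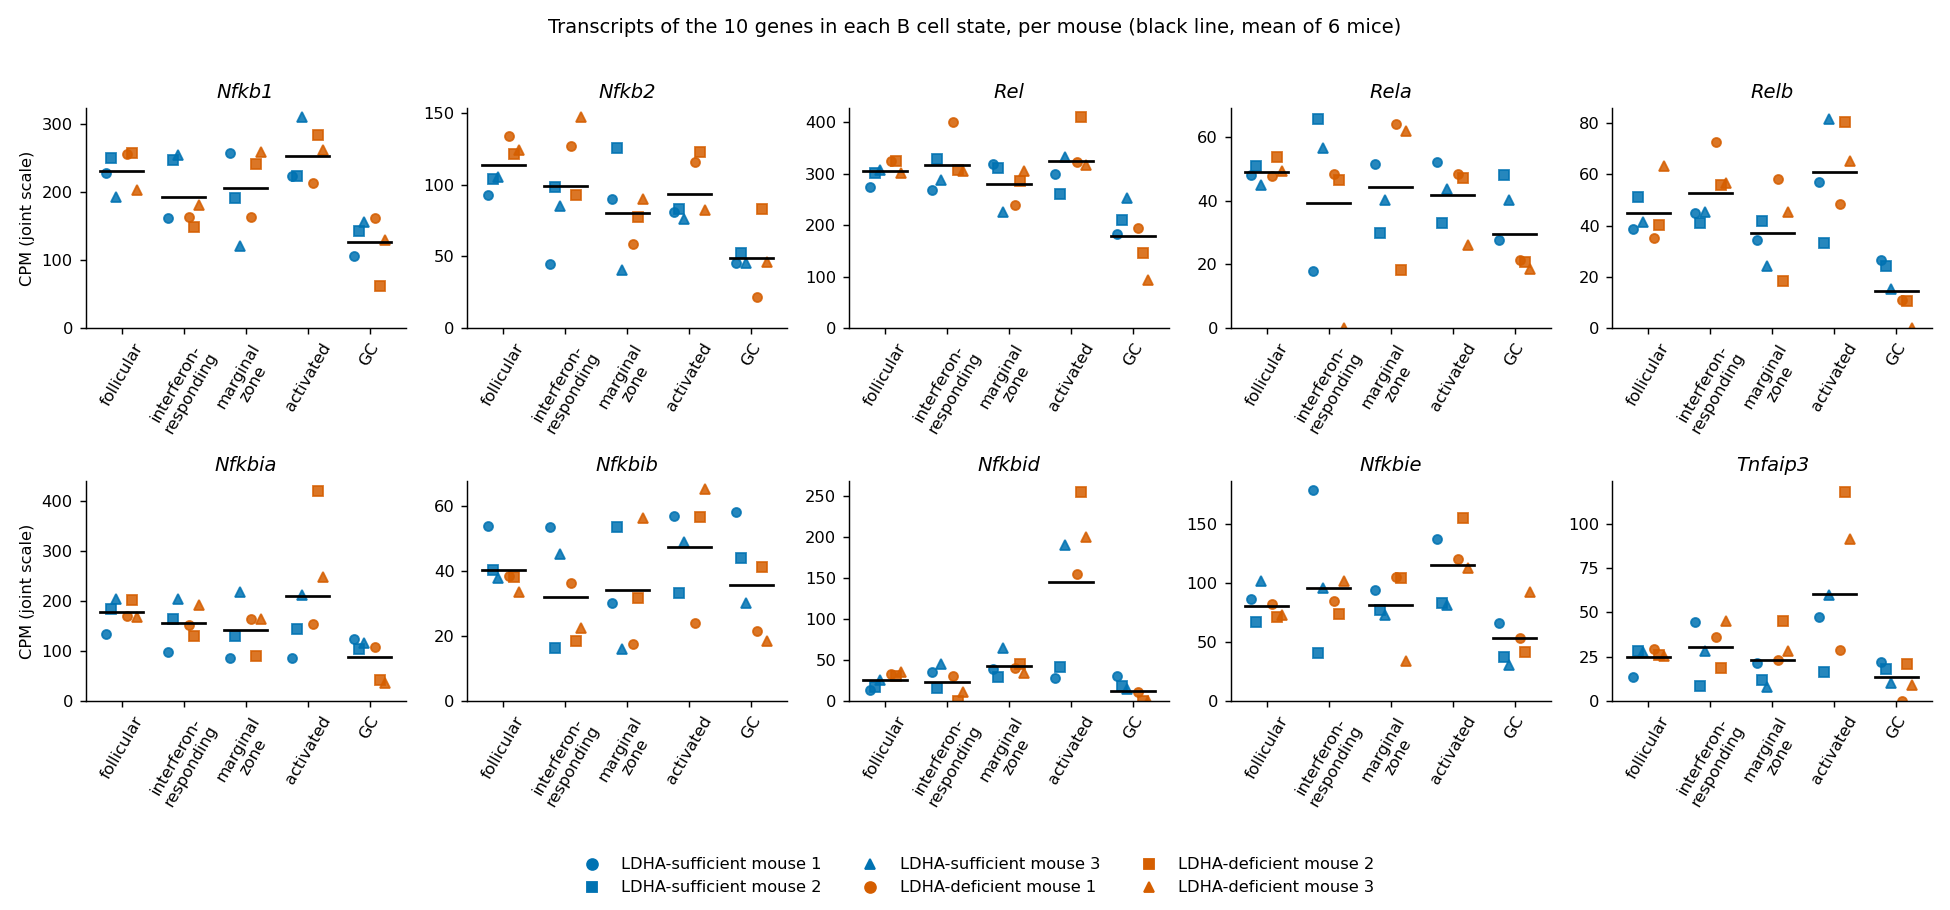
Level of each of the 10 genes (CPM on the joint scale, linear axes that start at 0) in follicular, interferon-responding, marginal zone, activated and GC B-like cells. Each point is 1 mouse, coloured by genotype, and the black line is the mean of 6 mice. Nfkbid is highest in activated cells at a mean of 145 CPM, and 9 of 10 genes have their lowest mean in GC cells. The share of all genes with their lowest mean there was not computed.

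Between genotypes, no gene of the 10 passed the test in any class. The comparison with the deepest counts was over all B-lineage cells of a mouse, where 0 of 10 were called by edgeR and 0 by DESeq2, although 5 had an unadjusted p under 0.05 with either tool. Of all 9177 genes tested there, edgeR called 1.14% and gave 1580 an unadjusted p under 0.05. The log2 values (LDHA-deficient over LDHA-sufficient) were positive for 9 of the 10, with a median of 0.295 against 0.02 for all genes. Every LDHA-deficient mouse lay above every LDHA-sufficient mouse for 5 of 10, Nfkb1, Nfkb2, Rel, Nfkbid and Tnfaip3, against 9.8% of all genes. These sums mix states whose shares differed. GC B-like cells, in which Nfkb1, Nfkb2 and Rel were lower than in follicular cells, were more frequent in the LDHA-sufficient mice. The part of this in the values over all B cells was not tested. Non-GC B cells leave out the GC and plasma cell-like clusters. Among them, 0 of 10 were called by edgeR or DESeq2 (2 at an unadjusted p under 0.05 by edgeR, 0 by DESeq2), against 0.0941% of 8506 genes, and the median was 0.14. There 2 of 10, Nfkb2 and Rel, were higher in every LDHA-deficient mouse, against 4.5% of all genes.

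Nfkb2 came closest to the threshold. Its gene lies on chromosome 19 at 46304320-46312385 on the plus strand. Over all B cells it stood at 62.3, 77.1 and 80.1 CPM in LDHA-sufficient mice 1 to 3 and at 109, 110.5 and 104 CPM in LDHA-deficient mice 1 to 3. The genotypes did not overlap, and the log2 difference was 0.57 (SE 0.13, edgeR adjusted p = 0.0501). In non-GC B cells it was at 82.6, 100.7 and 87.3 against 116, 111 and 109 CPM, again without overlap (log2 0.31, SE 0.13, edgeR adjusted p = 0.971). In follicular B-like cells the values were 90.2, 103 and 103 against 131, 119 and 123 CPM (log2 0.33, SE 0.15, edgeR adjusted p = 0.999). Among activated B-like cells they were 92.2, 93.4 and 87.0 against 131, 138 and 96.1 CPM (log2 0.41, SE 0.31, edgeR adjusted p = 0.996). With coarser clusters the activated value was -0.04. Over all B cells Nfkb2 passed under 5 of 14 alternatives, at log2 values from 0.55 to 0.64. These were upper quartile scaling (edgeR adjusted p = 0.0488), no filter on low counts (0.00513), LDHA-sufficient mouse 3 left out (7.25e-04), equal cells per mouse (0.0455) and the removal of cells with red cell or T and NK cell genes (0.0430). Over all 14 the value ran from 0.46 to 0.64 and the adjusted p from 7.25e-04 to 0.237.

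Relb, which pairs with the Nfkb2 product, overlapped between the genotypes in each of these sets. It lies on chromosome 7 at 19606217-19629438 on the minus strand. Over all B cells it was at 31.8, 34.3 and 41.6 CPM in LDHA-sufficient and 43.1, 41.4 and 53.7 CPM in LDHA-deficient mice (log2 0.37, SE 0.18, edgeR adjusted p = 0.301). In activated B-like cells its log2 value was 0.22 (SE 0.37) and in follicular cells 0.04 (SE 0.25).

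The subunits of the faster arm had smaller log2 values over all B cells. Rel (chromosome 11, 23736847-23770970, minus strand) was at 220, 248 and 278 CPM in LDHA-sufficient and 311, 316 and 284 CPM in LDHA-deficient mice over all B cells, without overlap (log2 0.29, SE 0.12, edgeR adjusted p = 0.209). In non-GC B cells it was at 280.5, 293 and 292 against 317, 323 and 302 CPM, a log2 value of 0.12 (SE 0.09, edgeR adjusted p = 0.996). In activated cells the values were 342, 294 and 379 against 366, 461 and 369 CPM and overlapped. Nfkb1 (chromosome 3, 135584655-135691547, minus strand) was at 160.0, 185 and 196.5 against 212, 237 and 216 CPM over all B cells (log2 0.30, SE 0.11, edgeR adjusted p = 0.194). In non-GC B cells that value was 0.04 (SE 0.10), and in activated cells 0.01 (SE 0.22). Rela (chromosome 19, 5637483-5648130, plus strand) was at 36.9, 45.6 and 44.6 against 47.3, 45.1 and 39.4 CPM over all B cells, a log2 value of 0.06 (SE 0.17). With 6 to 11 UMIs per mouse it was too sparse to test in activated cells.

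Nfkbid had the largest log2 value among the 10 in each set of cells where it was tested. It lies on chromosome 7 at 30421732-30428746 on the plus strand, 16.4 Mb from Ldha. Nfkbib and Relb lie on the same chromosome, 18.1 and 27.2 Mb from Ldha. In activated B-like cells Nfkbid stood at 32.5, 46.7 and 218 CPM in LDHA-sufficient mice 1 to 3 and at 175, 286 and 233 CPM in LDHA-deficient mice 1 to 3. LDHA-sufficient mouse 3 thus lay among the LDHA-deficient mice, and the genotypes overlapped. The log2 difference was 1.30 (SE 0.72, edgeR adjusted p = 0.996). Without LDHA-sufficient mouse 3 it was 2.51 (SE 0.37, edgeR adjusted p = 2.10e-04), and leaving out that mouse also made Nfkbid pass in non-GC B cells (1.37, edgeR adjusted p = 2.55e-04). Over 15 alternatives the activated log2 value ran from 0.88 to 2.51 and passed in 1. In non-GC B cells it ran from 0.55 to 1.37 over 16 alternatives and passed in 2. The activated values rest on 6, 10 and 35 UMIs against 32, 54 and 46, of which the richest single cell held 2, 4 and 11 against 8, 11 and 14.

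Follicular B-like cells held less Nfkbid than activated cells in every mouse. The gene was there at 13.2, 17.4 and 25.3 CPM in LDHA-sufficient and 32.3, 30.3 and 35.3 CPM in LDHA-deficient mice. The genotypes did not overlap, with a log2 value of 0.77 (SE 0.32, edgeR adjusted p = 0.999) on 7 to 30 UMIs per mouse. Over all B cells it was at 25.4, 20.7 and 52.1 against 53.1, 58.0 and 63.6 CPM (log2 0.90, SE 0.30, edgeR adjusted p = 0.190).

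Nfkbia and Tnfaip3, the classic feedback genes, had positive log2 values in activated cells that did not pass. Nfkbia lies on chromosome 12 at 55489410-55492647 on the minus strand. In activated B-like cells it was at 97.6, 163 and 242 CPM in LDHA-sufficient and 175, 472 and 288 CPM in LDHA-deficient mice (log2 0.91, SE 0.41, edgeR adjusted p = 0.924). LDHA-deficient mouse 1 lay within the LDHA-sufficient range and LDHA-deficient mouse 2 far above every other mouse. Without LDHA-deficient mouse 1 the value was 1.19 and passed (edgeR adjusted p = 0.0262), and without LDHA-deficient mouse 2 it was 0.48 and did not. In follicular B-like cells Nfkbia was at 131.5, 183 and 199 against 167, 199 and 166.5 CPM, a log2 value of 0.07 (SE 0.13).

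Tnfaip3 lies on chromosome 10 at 19000910-19015657 on the minus strand. In activated B-like cells it was at 54.2, 18.7 and 68.4 CPM in LDHA-sufficient and 32.8, 133 and 106 CPM in LDHA-deficient mice (log2 1.00, SE 0.47, edgeR adjusted p = 0.924), so that LDHA-deficient mouse 1 again lay within the other group. Without LDHA-sufficient mouse 2 the value was 0.58. Over all B cells it was at 22.1, 19.8 and 27.2 against 27.4, 39.5 and 39.4 CPM, without overlap but by a margin of less than 1 UMI (log2 0.65, SE 0.21, edgeR adjusted p = 0.142). In follicular cells the log2 value was 0.20 (SE 0.33).

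The remaining cytoplasmic inhibitors did not separate the genotypes in any class. Nfkbie (chromosome 17, 45555703-45563169, plus strand) was at 157, 93.4 and 93.2 against 136.5, 175 and 131.5 CPM in activated B-like cells (log2 0.36, SE 0.30, edgeR adjusted p = 0.996) and had a log2 value of -0.18 (SE 0.19) in follicular cells. Nfkbib (chromosome 7, 28758251-28767512, minus strand) had a log2 value of -0.26 over all B cells (SE 0.19, edgeR adjusted p = 0.5004), the only negative value among the 10 there, at 52.6, 40.03 and 37.8 against 30.7, 38.3 and 41.2 CPM.

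**Figure D2:**
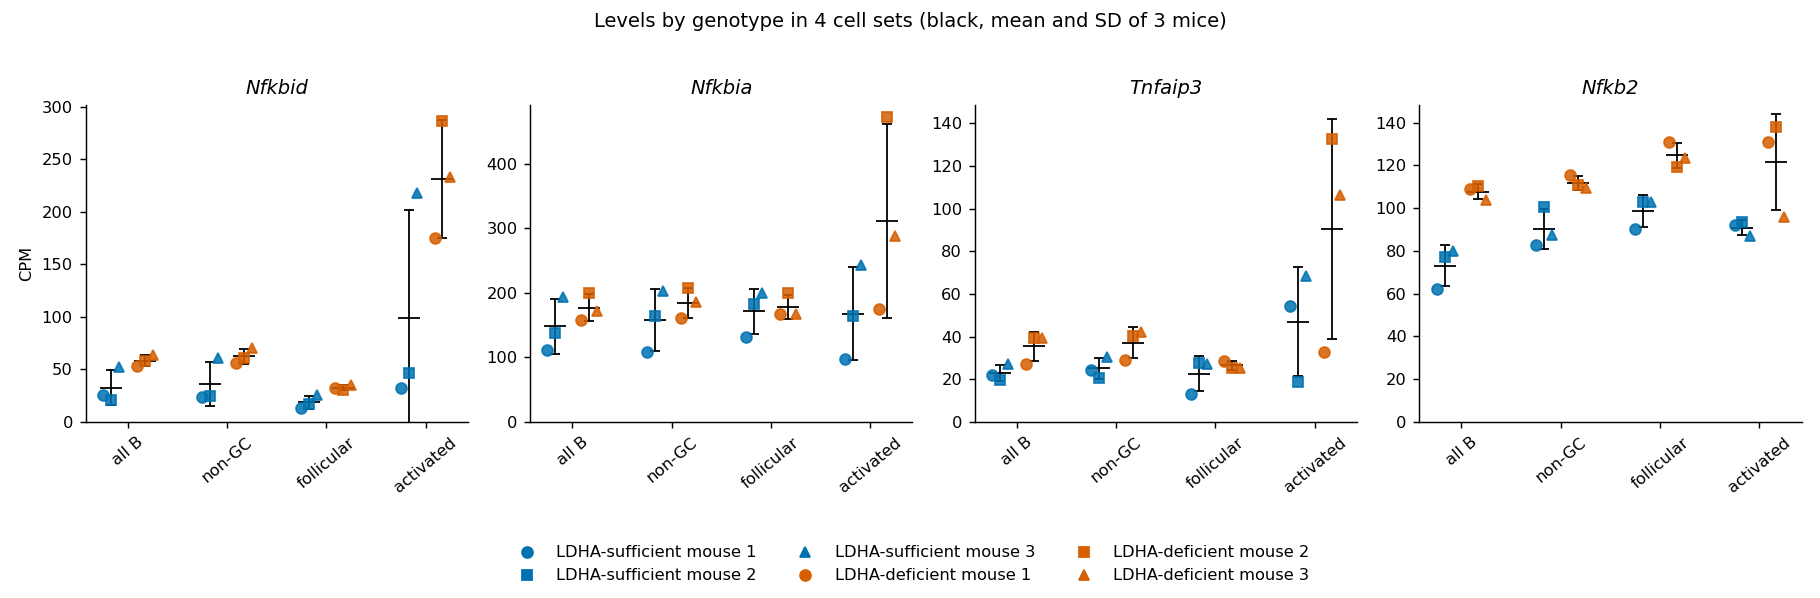
Levels of Nfkbid, Nfkbia, Tnfaip3 and Nfkb2 (CPM of each class's own fit, linear axes from 0) in all B, non-GC B, follicular and activated B-like cells. Points are mice, blue for LDHA-sufficient and orange for LDHA-deficient, and black marks give the mean and SD of 3 mice (the bar of Nfkbid in LDHA-sufficient activated cells is clipped at 0); the LDHA-sufficient mouse at 218 CPM of Nfkbid in activated cells sits among the LDHA-deficient mice.

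Counted by class, activated B-like cells gave 0 of 9 tested genes called by edgeR and 0 by DESeq2 (1 at an unadjusted p under 0.05 with either), against 0.0275% of 3631 genes. All 9 log2 values were positive there, with a median of 0.363 against -0.0027 for all genes, and 1 of 9, Nfkb2, was higher in every LDHA-deficient mouse, against 5.07%. Without LDHA-deficient mouse 2 the median was 0.17, with 7 of 10 positive, and without LDHA-sufficient mouse 2 it was 0.189, with 6 of 10 positive. The other alternatives gave 0 to 2 negative values. In follicular B-like cells 0 of 10 were called by either tool (2 at an unadjusted p under 0.05 by edgeR, 0 by DESeq2), against 0.0445% of 6749 genes. The follicular median was 0.098, and 2 of 10, Nfkb2 and Nfkbid, were higher in every LDHA-deficient mouse, against 4.76%. In marginal zone B-like cells 5 genes had enough UMIs to test and 0 were called by either tool, with 0 at an unadjusted p under 0.05, against 0% of 2811 genes. In GC B-like cells 3 could be tested and 0 were called by either tool, with 0 at an unadjusted p under 0.05, against 0% of 2775 genes.

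The marginal zone and GC classes show what the depth allows. In marginal zone B-like cells Nfkb1 had a log2 value of 0.16 (SE 0.22), Rel -0.07 (SE 0.19), Nfkbia 0.00 (SE 0.27), Nfkbie -0.02 (SE 0.34) and Nfkb2 -0.24 (SE 0.34). Nfkbid, which was not tested there, was at 42.9, 33.7 and 73.7 against 47.0, 49.8 and 38.0 CPM and overlapped. Tnfaip3, also not tested, was higher in every LDHA-deficient mouse, on 5, 2 and 1 against 4, 10 and 5 UMIs. Rela, Relb and Nfkbib had 2 to 12 UMIs per mouse and overlapped. In GC B-like cells the GC markers summed to 2377, 2428 and 1558 CPM in LDHA-sufficient and 650, 2241 and 1126 CPM in LDHA-deficient mice. Of 8 of these markers tested there, 7 had negative log2 values (median -0.749). The 4 marginal zone markers tested there had positive ones (median 0.847). The part of this in the values of the class was not tested. Nfkbia was at 150, 125.5 and 146 CPM in LDHA-sufficient and 151, 58.2 and 51.2 CPM in LDHA-deficient GC B-like cells (log2 -0.71, SE 0.38, edgeR adjusted p = 0.697), on 10, 4 and 4 UMIs in the latter. Rel had a log2 value of -0.37 (SE 0.29) and Nfkb1 one of 0.04 (SE 0.33). Of the 7 genes too sparse to test, Rela, Relb and Nfkbid were lower in every LDHA-deficient mouse, on 2, 1 and 1 or fewer UMIs per mouse, and Nfkb2, Nfkbib, Nfkbie and Tnfaip3 overlapped. The share of all genes without overlap was not computed for the marginal zone and GC classes. The orders of these sparse genes, and of Tnfaip3 in marginal zone cells, are therefore not read as results. The GC cells of the LDHA-deficient mice came mostly from the mitotic cluster, 17 against 4 from the other, while the LDHA-sufficient mice gave 90 and 62. Within the mitotic cluster Nfkbia was at 119, 84.1 and 52.9 against 110, 34.3 and 28.8 CPM on the joint scale, and overlapped.

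**Figure D3:**
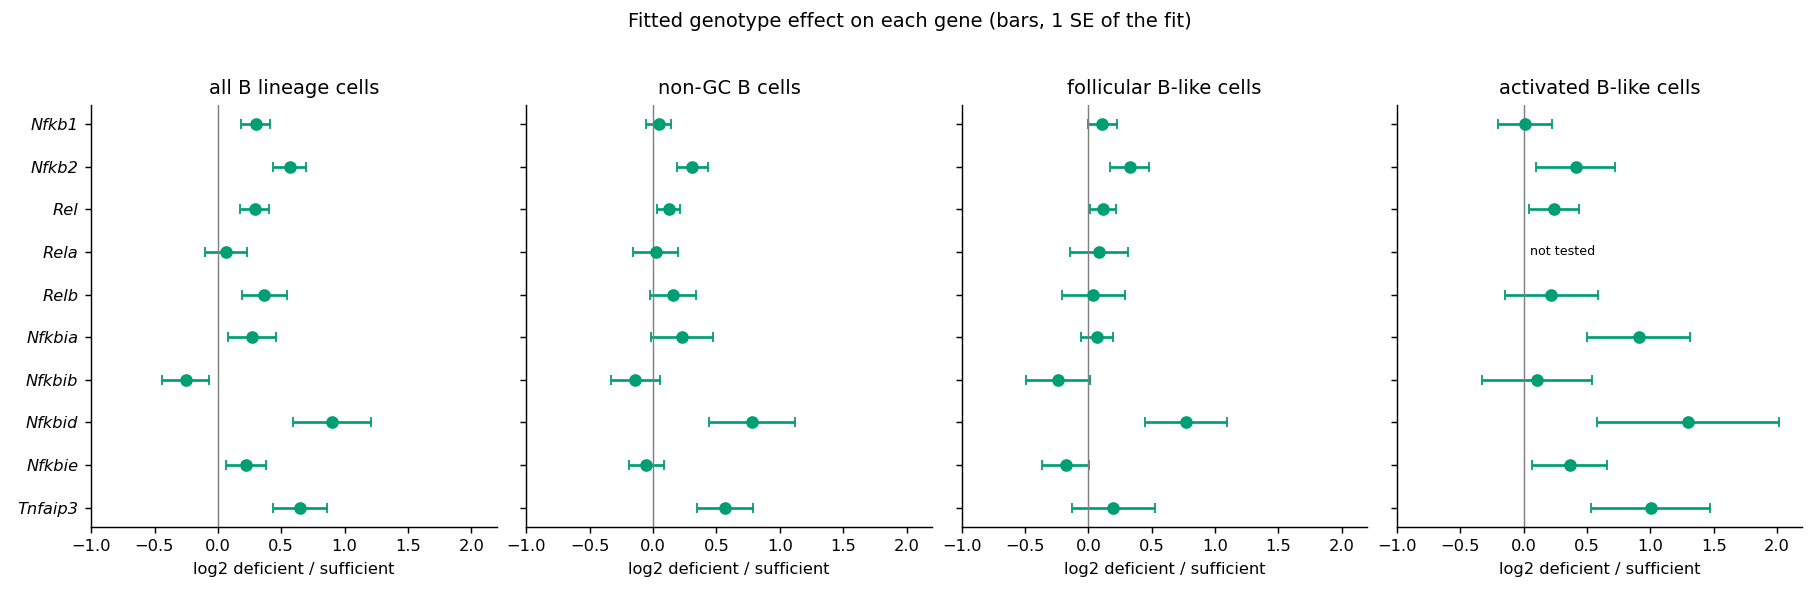
Fitted log2 ratio of LDHA-deficient over LDHA-sufficient mice for each of the 10 genes in 4 sets of cells, with bars of 1 SE of the edgeR fit. Nfkbid lies at 0.90, 0.78, 0.77 and 1.30 from left to right; Rela was not tested in activated cells, and no gene passed the adjusted threshold.

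Whether the genotype difference itself differed between activated and follicular B-like cells was tested with the mouse as a block. Of the 10 genes 0 were called (edgeR, 1 at an unadjusted p under 0.05), against 0.0314% of 6365 genes. The exception at the unadjusted level was Nfkbia, with a log2 difference of 0.82 (SE 0.29, edgeR adjusted p = 0.821). Over 11 alternatives the value ran from 0.23, with NF-kappaB and receptor genes left out of the clustering, to 1.10, without LDHA-deficient mouse 1, and the edgeR adjusted p from 0.296 to 0.999. It was 0.50 without LDHA-deficient mouse 2 and 0.525 with coarser clusters. Tnfaip3 gave 0.76 (SE 0.58), Nfkbid 0.56 (SE 0.46) and Nfkbie 0.54 (SE 0.35).

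Other genes of the pathway were read from 4 lists. The lists were set for this work with earlier results of these data known. Of 43 genes that carry the signal to NF-kappaB (receptors, adaptors, kinases and ubiquitin enzymes), 41 were tested in non-GC B cells and 0 were called by edgeR or DESeq2 (1 at an unadjusted p under 0.05 with either), with 22 positive values and a median of 0.00. Of all 8506 genes tested there, edgeR called 8 and gave 411 an unadjusted p under 0.05. Nfkbiz, an inducible nuclear relative of Nfkbid, had the smallest p of this list and was at 27.2, 27.9 and 23.0 against 33.4, 43.5 and 41.3 CPM without overlap (log2 0.61, SE 0.21, edgeR adjusted p = 0.834). The ubiquitin ligase gene Itch had a log2 value of 0.26, the kinase gene Chuk 0.30 and the BAFF and APRIL receptor gene Tnfrsf13b -0.18.

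Among 33 known targets of NF-kappaB, 18 were tested in activated B-like cells. None passed (0 called by edgeR and 0 by DESeq2, with 11 and 10 at an unadjusted p under 0.05, against 188 of all 3631 genes by edgeR), and 16 of the 18 had positive values with a median of 0.836, against -0.0027 for all genes. In follicular B-like cells 18 were tested, with 7 positive values and a median of -0.03. The tested genes differ between the classes, since Mir155hg was tested in activated and not in follicular cells. For the difference between these classes, edgeR called 0 of 23 tested targets. There 12 had an unadjusted p under 0.05, against 302 of all 6365 genes, with a median of 0.791. Without LDHA-deficient mouse 2 that median was 0.496, with 5 of 24 at an unadjusted p under 0.05. Cd83, a surface protein of activated B cells, was at 314.5, 271 and 249 CPM in LDHA-sufficient and 289.5, 663 and 566 CPM in LDHA-deficient mice among activated cells (log2 0.86, SE 0.23, edgeR adjusted p = 0.376). Irf4, a transcription factor induced by antigen receptor signals, was at 233, 201 and 317 against 355, 361 and 394 CPM without overlap (log2 0.58, SE 0.21, edgeR adjusted p = 0.765). The survival gene Bcl2a1b, a member of a family of near copies whose reads are uncertain, was at 141, 149 and 224 against 180, 509 and 298 CPM (log2 0.96, SE 0.33). The same genes and Mir155hg, the host of miR-155, had log2 values of 0.40, 0.39, 0.51 and 0.91 in non-GC B cells, in the order Cd83, Irf4, Bcl2a1b, Mir155hg. Without LDHA-deficient mouse 2 the activated median of this list was 0.515, with 6 genes at an unadjusted p under 0.05. With NF-kappaB and receptor genes left out of the clustering it was 0.602, with 5, and with coarser clusters 0.544, with 4. Without LDHA-deficient mouse 1 edgeR called 5 of 19 tested, with a median of 1.103 and 14 at an unadjusted p under 0.05, and without a filter on low counts it called 5 of 32. Among all genes tested in activated cells, edgeR called 10 and 21 under these alternatives, in the same order. Mir155hg, Il4i1, Batf and Ccnd2 are also among the markers that named the activated class.

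Early genes of the antigen receptor, some of which also named the activated class, were read beside them. In non-GC B cells 12 of 21 were tested and 1, Nr4a1, was called by edgeR. Of all 8506 genes tested there, edgeR called 8 and DESeq2 2. Nr4a1, an early gene that tracks receptor signalling, was at 6.36, 9.89 and 10.1 CPM in LDHA-sufficient and 18.1, 37.0 and 19.7 CPM in LDHA-deficient mice (log2 1.55, SE 0.32, edgeR adjusted p = 0.0123). DESeq2 called 0 of this list (3 at an unadjusted p under 0.05), and edgeR called 0 without LDHA-sufficient mouse 2, LDHA-sufficient mouse 3 or LDHA-deficient mouse 2 (3, 4 and 4 at an unadjusted p under 0.05), with coarser clusters or with the ratio hashtag call. Egr3, Myc and Dusp2 had log2 values of 0.60, 0.54 and -0.15 there. In activated B-like cells the median over 10 tested genes was 0.757, and 0.214 without LDHA-deficient mouse 2, which had 3298 CPM of these genes in all. Handling stress genes, which cell isolation can raise, summed to 4241, 4735 and 5489 CPM in LDHA-sufficient and 4429, 4979 and 4515 CPM in LDHA-deficient activated cells, and their median log2 value was -0.04. In non-GC B cells Hspe1, Dnaja1, Zfp36 and Hspd1 of that list had log2 values of -0.20, 0.20, -0.22 and -0.13. Without the cells that held red cell or T and NK cell genes, the activated log2 values of Nfkbid, Tnfaip3 and Nfkbia were 1.33, 0.98 and 0.88, and none passed. Genes that mark cycling summed to 286 CPM in activated cells of LDHA-deficient mouse 2 and to between 845 and 978 in the other mice, and the part of this in the results was not tested.

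**Figure D4:**
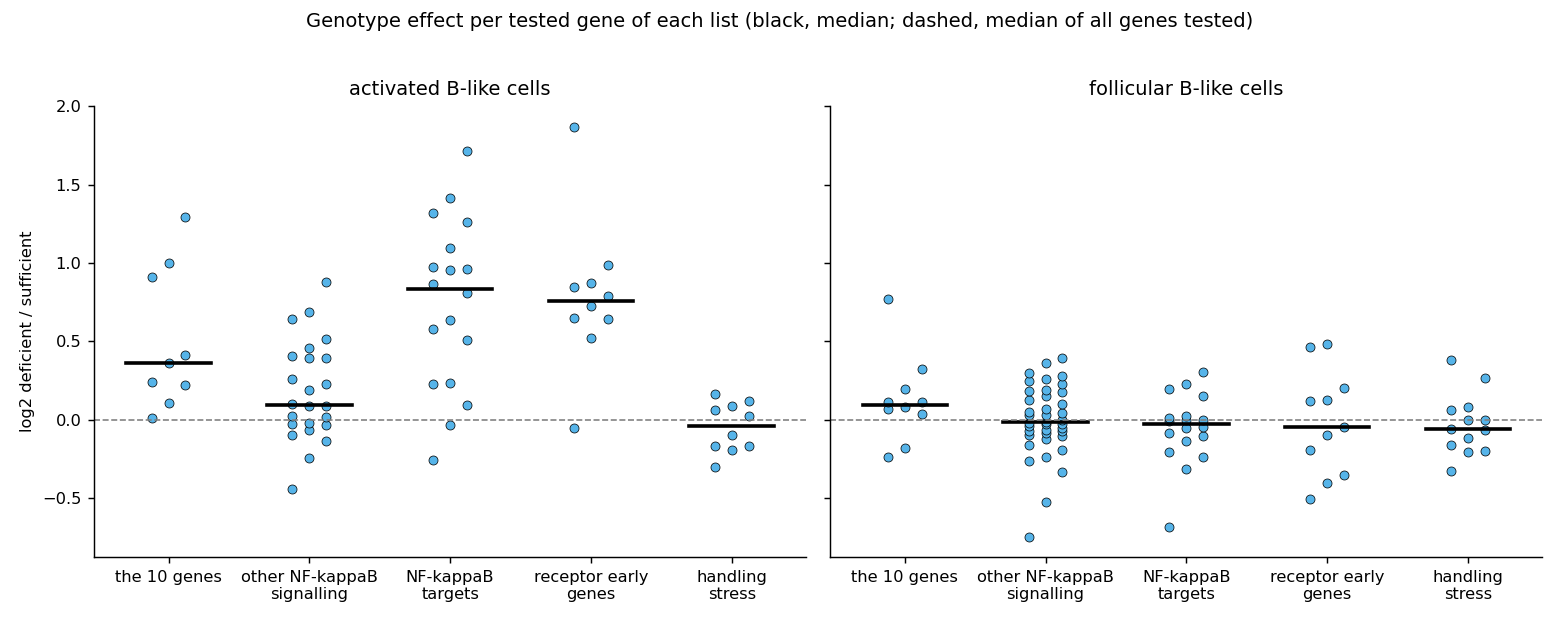
Log2 ratio of LDHA-deficient over LDHA-sufficient mice for every tested gene among the 10 and in 4 further lists, in activated (left) and follicular (right) B-like cells. Each point is a gene, the black bar the median of the list and the dashed line the median of all genes tested. The NF-kappaB targets have a median of 0.836 on the left and -0.03 on the right, over tested genes that differ between the classes.

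The genes whose levels ran most closely with each of the 10 were read over 26 sums of a mouse and state, among 5760 genes, by Pearson's correlation of log2(CPM + 10). These points share mice, a lane and depth, and are a description. Each sum had at least 20 cells, so GC B-like cells entered only from LDHA-sufficient mice 1 and 2. Over all 26 sums the 10 genes had from 257 (Tnfaip3) to 2475 UMIs (Rel), with 388 for Rela. Rela ran closest with Gramd1a (0.835), Mat2b and Nup160, Rel with Zeb2 (0.794), Il2rg and Fcmr, and Nfkbid with Tmem33 (0.81), Rsl1d1 and Mettl16. For Nfkbib the nearest were Naa16 (0.784), Mgat2 and Snd1, for Nfkb1 Rara (0.74), Fam3c and Ephx1, and for Tnfaip3 Ythdf2 (0.728), Ehd1 and Wsb1. Relb ran with Hivep1 (0.719), Sec61a1 and Snx9, Nfkb2 with Zbtb37 (0.716), Fcer2a and Dip2b, Nfkbie with Rbm27 (0.64), Kdm6b and Clk4, and Nfkbia with Ier2 (0.625), Abce1 and Orc4. Within the 10 genes, Nfkb2 and Rel were the closest pair (0.783), followed by Nfkb1 and Rel (0.67), and Rela and Nfkbie the most opposed (-0.325). Nfkbid and Tnfaip3 had a correlation of 0.601.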

How the data were processed

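Transcripts and hashtags of 6 pooled mice were read from 1 lane. The authors deposited both as raw UMI counts, per hashtag and per gene, the latter for 32285 genes in 2836 barcodes with 18170115 UMIs in all. The submitters' processing notes name mm10, Seurat 4.2.1 and Cell Ranger 6.0.0, whereas the matrix came from Cell Ranger 6.0.2 per the file headers. The heavy chain table was not used.

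Mice were assigned from the hashtag counts with HTODemux (Seurat 5.3.0 in R 4.3.3, positive quantile 0.99). Of 2831 barcodes with hashtags, 1856 (65.6%) carried a single hashtag, 820 were doublets and 155 had none. About 167.2 single-hashtag barcodes (9.01%) are expected to be doublets within a mouse, and Scrublet called 0. Cells with at least 500 genes, at least 1000 UMIs and under 10% mitochondrial UMIs were kept (1849). Leiden clusters were built in scanpy 1.11.5 (igraph 0.11.9, resolution 0.8, 2000 variable genes, 30 components, 20 neighbours), leaving out the 10 genes, Ldha, sex-linked, ribosomal and mitochondrial genes and segments of antibodies and T cell receptors. A cluster was named when 3 markers were at least 1.5-fold above other cells and found in 10% of its cells, so names may differ from those of the study. A cluster of 74 myeloid or plasmacytoid dendritic cells was left out, 35 of which held over 5 UMIs of B cell markers (a further marker on that list is not reported here).

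UMIs were summed per mouse and class (at least 20 cells per mouse, 5 for GC) and compared with the quasi-likelihood test of edgeR 4.0.16 (robust fit, TMM scaling, filterByExpr, threshold 0.05 on p adjusted after Benjamini and Hochberg). The fit was tested on simulated data. DESeq2 1.42.0, other scalings, filters, hashtag calls, clusterings and each mouse left out were the alternatives. The p-values measure the spread between 6 mice of 1 lane, and the sources used here do not say whether mice were litter mates. CPM scale UMIs to the TMM-adjusted total. Joint levels used genes with at least 30 UMIs. Promoter windows reach from 250 bases before to 50 after a start site, and matches are described only.

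The genes named are the 10 members, Ldha, the 4 genes of each list with the smallest p in non-GC B cells, and the 3 genes closest to each member (at least 200 UMIs). The members and lists were chosen with earlier results of these data known.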

Additional observations from a re-analysis of the deposited data

Results flagged for a closer look

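The fall of Ldha, the gene used to check the labels, differed between classes. Its log2 difference between genotypes was -2.75 in activated and -1.20 in follicular B-like cells. A test of this contrast between classes, with the mouse as a block, gave -1.61 (SE 0.34, edgeR adjusted p = 0.0289). Ldha stood at 440 ± 77.8 CPM in LDHA-sufficient activated cells and 120.0 ± 4.65 CPM in LDHA-sufficient follicular cells, against 64.7 ± 14.5 and 53.8 ± 11.5 CPM in the LDHA-deficient mice (SD, n = 3). The value lay between -1.72 and -0.80 over 11 alternatives and passed in 4 of them. It did not pass when a single mouse was left out, namely LDHA-sufficient mouse 2 (-1.49), LDHA-sufficient mouse 3 (-1.60) or any LDHA-deficient mouse (-1.605, -1.61 and -1.615), with coarser clusters (-0.80), or with NF-kappaB and receptor genes left out of the clustering (-1.29). None of the 10 NF-kappaB genes was called in the same test (edgeR, 1 at an unadjusted p under 0.05).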

How the results depend on the processing

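The count of NF-kappaB genes called was 0 in every class and depended on single mice. Over all B cells it was 1 with upper quartile scaling, 2 without a filter on low counts, 1 with equal cells per mouse, 1 without the cells that held red cell or T and NK cell genes (chosen after seeing the data) and 0 to 6 with a mouse left out. The 6 calls, Nfkb1 (0.36), Nfkb2 (0.63), Rel (0.37), Nfkbia (0.50), Nfkbid (1.33) and Tnfaip3 (0.76), came without LDHA-sufficient mouse 3, when 1478 of all genes were called against 105 with every mouse. Over the other classes, a mouse left out gave 6 to 18 calls among all genes in non-GC B (8 reported), 1 to 10 in activated (1), 4 to 17 in follicular (3), 0 to 6 in marginal zone (0) and 0 to 23 in GC B-like cells (0), and 2 to 7 for the difference between classes (2). No filter gave 698 over all B cells and 32, 21, 17 and 36 in non-GC, activated, follicular and GC cells. In non-GC B cells the count of the 10 was 1 without a filter and 0 to 1 with a mouse left out, and in activated cells 0 to 1 with a mouse left out. It stayed at 0 under the alternatives run in follicular, marginal zone and GC B-like cells and for the difference between classes. Of the levels across states, 3 genes rather than 8 were highest in activated cells when NF-kappaB and receptor genes were left out of the clustering, and 6 with coarser clusters or in LDHA-sufficient mice alone. Of 812 log2 values of the 10 genes under alternatives, 72 changed sign, and 1 of these was above its SE as reported: Nfkb2 in activated cells, -0.043 with coarser clusters, in which myeloid, interferon-responding and plasma cells merge into other classes. The cause was not tested. Ldha kept its sign in 100 of 100. No paired analysis was possible because the hashtags carry no number that links a mouse of 1 genotype to a mouse of the other. The ratio hashtag call was not run in activated and marginal zone cells, the removal of high Scrublet scores in marginal zone cells, or equal cells in marginal zone and GC cells, since a mouse had too few cells.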
